A study of Mus musculus with 45 samples.

Results

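The cytochrome P450 genes were followed through RNA sequencing of the mouse distal colon. They were chosen as the protein-coding mouse genes whose symbol is Cyp followed by a digit, and 100 of the 50600 genes in the deposited tables met this rule. A further 21 Cyp-symbol genes were pseudogenes or antisense genes and were not members. Libraries of poly(A)-enriched RNA made up 6 groups. The first cohort had 8 libraries of untreated wild-type (WT) mice and 3 groups of IL10 knockout mice: 10 libraries with vehicle, 9 with compound 13 at 30 mg/kg and 7 with compound 13 at 10 mg/kg. Compound 13 is a code name, and the series title speaks of antagonism of GPR4, which is a proton-sensing receptor. In a second cohort, labelled day 77, 5 libraries came from IL10 knockout mice given vehicle and 5 from IL10 knockout mice given anti-p40, an antibody to the subunit shared by interleukins 12 and 23. Mice without Il10 lack an anti-inflammatory cytokine and can develop colitis. All groups but WT carried the knockout, and Il10 had 10 counts in WT and 0 in the other 5 groups. WT mice had no vehicle, so knockout and vehicle effects cannot be told apart. The labels name no strain, sex, age or animal, and leave unsaid whether each library is a different animal. The p-values therefore measure the spread between libraries, which may be technical.

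Cytochromes P450 are haem enzymes that insert an oxygen atom into small molecules, with electrons passed on by a reductase. The Cyp1, Cyp2 and Cyp3 families are best known for the oxidation of drugs, plant compounds and other foreign chemicals, and several of their members also act on steroids and on fatty acids such as arachidonic acid. Cyp4 enzymes hydroxylate the ends of fatty acids and eicosanoids, including the inflammatory leukotrienes. Other members have single tasks in the making or breakdown of sterols, bile acids, steroid hormones, retinoic acid and vitamin D. The gut lining carries its own set of these enzymes, in part other than that of the liver, and faces the contents of the lumen with them.

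Members of the Cyp2c subfamily were among those with the largest differences in these data. Cyp2c55 (ENSMUSG00000025002, chromosome 19, 39007019 to 39042693, GRCm38), Cyp2c65 (chromosome 19, 39061015 to 39093944) and Cyp2c69 (chromosome 19, 39842814 to 39886799) lie in one Cyp2c gene cluster, which also holds Cyp2c67, Cyp2c68 and Cyp2c40. The bases before the start of 3 of them are shown because these genes differed together with anti-p40 but carry different letters. They are RefSeq promoter sequences on GRCm38.p6, 5′ to 3′ on the strand of the gene, without bases that GENCODE M21 places inside the gene. Capitals mark CAAAGTCCA, a core form of the element bound by the nuclear receptor HNF4, found by search on both strands.
Cyp2c55 (chr19:39006769-39007018, plus strand): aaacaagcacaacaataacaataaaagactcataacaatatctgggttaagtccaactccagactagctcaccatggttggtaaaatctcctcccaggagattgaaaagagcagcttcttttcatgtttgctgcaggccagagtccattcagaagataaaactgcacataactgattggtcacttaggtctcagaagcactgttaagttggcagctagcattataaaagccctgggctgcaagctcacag
Cyp2c65 (chr19:39060756-39061005, plus strand): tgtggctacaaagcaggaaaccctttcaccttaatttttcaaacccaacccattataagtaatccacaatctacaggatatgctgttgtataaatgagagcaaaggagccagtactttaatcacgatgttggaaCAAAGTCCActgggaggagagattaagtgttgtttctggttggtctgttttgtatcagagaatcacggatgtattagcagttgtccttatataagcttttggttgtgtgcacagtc
Cyp2c69 (chr19:39886800-39887019, minus strand): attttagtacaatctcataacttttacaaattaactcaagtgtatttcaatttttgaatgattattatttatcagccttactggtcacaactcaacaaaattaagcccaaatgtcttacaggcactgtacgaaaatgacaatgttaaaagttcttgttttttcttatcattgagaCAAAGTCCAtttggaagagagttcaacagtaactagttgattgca
CAAAGTCCA began 116 bases before the RefSeq start of Cyp2c65 and 75 bases before that of Cyp2c69, and was not in the window of Cyp2c55. Over the 250 bases before the start, 0.384% of 32851 promoters of all genes held it. Among the Cyp genes, 77 had an entry of this length, with 87 promoters, and 11 of these (12.6%) held it, among them those of Cyp2c40, Cyp2c67 and Cyp2c68. These Cyp2c genes are close copies, so their matches are not separate observations. The nuclear receptor half-site AGGTCA stood in 14.0% of all promoters and in 21.8% of those of Cyp genes, and AGTTCA in 11.8% and 17.2%. GCGTG, the core of the element bound by the aryl hydrocarbon receptor, stood in 28.2% and 19.5%. None of these motifs is contained in another. Of the 87 Cyp promoters, 31 belonged to genes with a mean of at least 1 TPM in a group. Among these 31, the first half-site stood in 6.45%, below its 14.0% in all promoters, and the second in 19.4%. The HNF4 form stood in 19.4% of the 31 and the aryl hydrocarbon receptor core in 25.8%. A form of the HNF1 element was also searched and matched 0 of the 87. Differences between these shares were not tested. A match describes letters and shows no binding.

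Some libraries stood apart. WT library 5 held liver and pancreas transcripts: its 12 hepatocyte markers summed to 948.1 TPM, against a median of 73.2 TPM over the WT libraries, and its 8 pancreatic acinar markers to 14120 TPM against a median of 347.6 TPM. TPM is a transcript level scaled for length and for the total of the library, so it allows levels of different genes to be compared. Acinar markers were also high in knockout vehicle libraries 1, 3 and 6 (8284, 2714 and 19950 TPM), in libraries 1, 4 and 9 of the 30 mg/kg group (8749, 12920 and 1691 TPM) and in anti-p40 library 5 (11190 TPM). Knockout vehicle library 2 and day 77 vehicle library 3 were the highest of their groups in the 7 neutrophil markers, with 5279 and 4391 TPM. The 12 markers of colon epithelium, the labelled tissue's lining, were present in every library, with sums of 14700 to 16310 TPM in WT, 14670 to 23720 TPM in knockout vehicle and 14620 to 22920 TPM at day 77. Single libraries were left out in turn, and Cyp calls found to be lost in this way are given. The libraries high in acinar markers were not left out together. Values of partners, haem genes and regulators, and the summed Cyp levels, are given with all libraries only.

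Most Cyp genes were low or silent in the distal colon. Of the 100, 33 reached a mean of 1 TPM in at least 1 group, which is called detected here, and 24 reached 5 TPM. Some counts were present for 90, and 10 had 0 counts in all 44 libraries (1182931794 counts), which allows a level of up to 0.00254 CPM, for counting error only. By role, 22 of 60 members of the xenobiotic families Cyp1 to Cyp3 were detected, 7 of 20 Cyp4 genes, 3 of 7 sterol and bile acid genes, and the orphan Cyp20a1, whose substrate is unknown. None of 3 retinoic acid, 3 vitamin D or 6 steroid hormone genes was detected. Of the subfamilies, Cyp2d (6 of 8), Cyp2c (6 of 15) and Cyp4f (6 of 9) gave most of the detected genes, while none of 8 Cyp4a or 5 Cyp2b genes reached 1 TPM. Cyp1a1 and Cyp1b1, which the aryl hydrocarbon receptor induces in many tissues, had no library above 0.14 and 0.22 TPM. Both were named after their values were seen. Just inside the limit was Cyp2a12, at 1.083 TPM in WT, and just outside it Cyp4b1, at 0.789 TPM in WT.

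**Figure D1:**
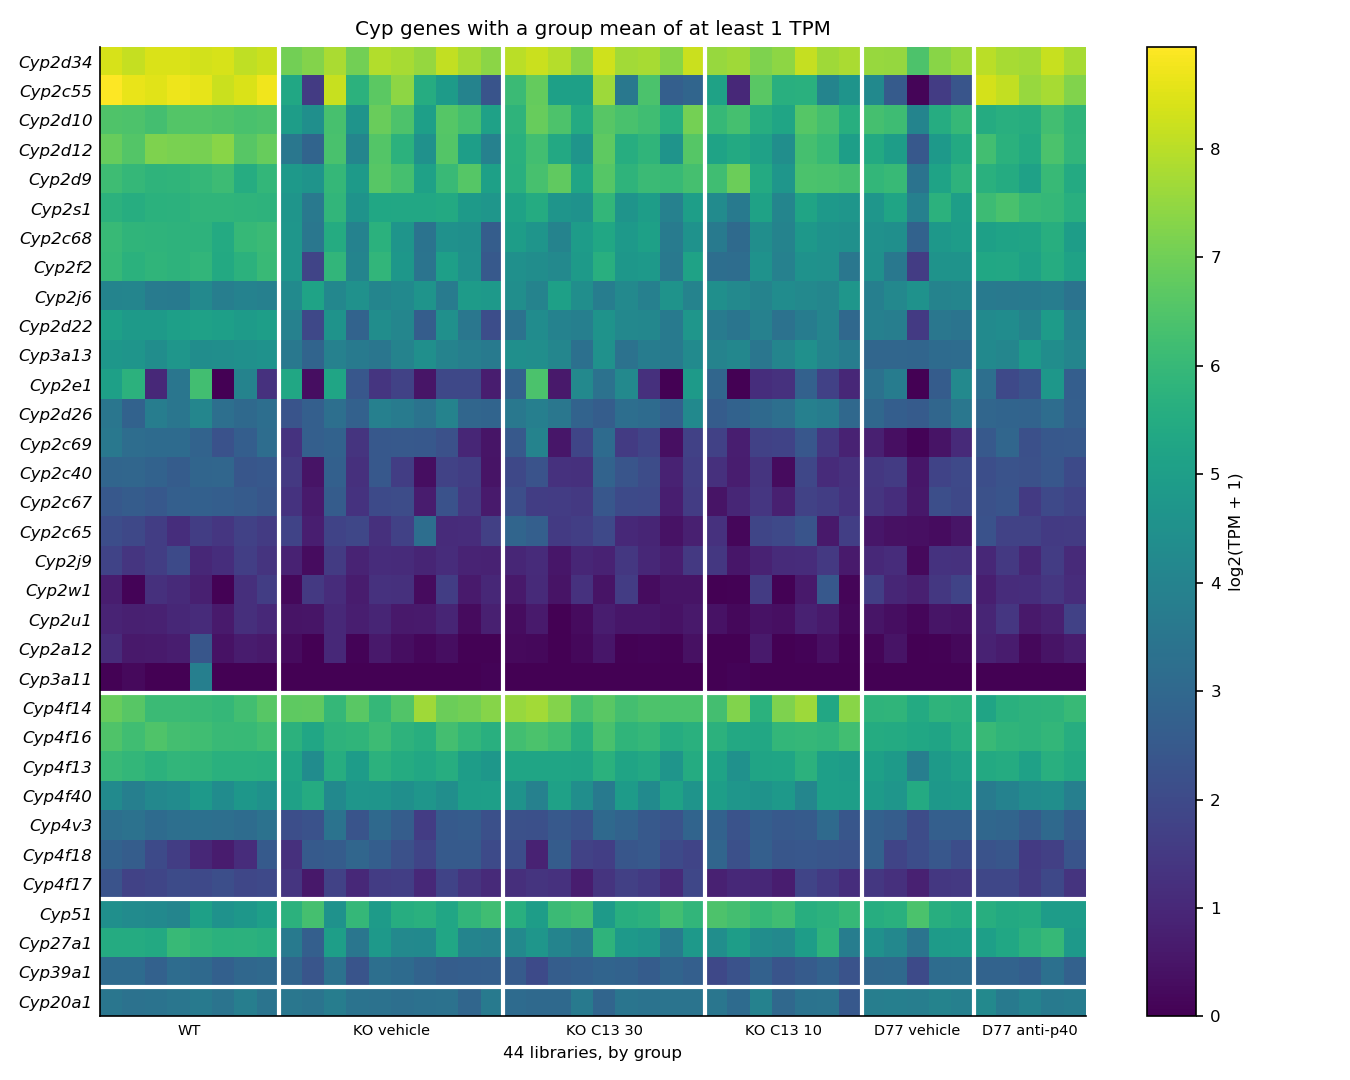
Heat map of log2(TPM + 1) for the 33 detected Cyp genes (rows, by role and then by mean level; horizontal white lines part the xenobiotic, Cyp4, sterol and orphan genes) in the 44 grouped libraries (columns, with vertical white lines between groups). Cyp2c55 is brightest in WT and in day 77 anti-p40 and darkest in day 77 vehicle, and Cyp3a11 is above background in WT library 5 alone, at 13.6 TPM.

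In WT colon the 10 highest members were Cyp2c55, Cyp2d34, Cyp2d12, Cyp2d10, Cyp4f14, Cyp4f16, Cyp2d9, Cyp2c68, Cyp2f2 and Cyp4f13. Cyp2c55, which hydroxylates arachidonic acid, had 391.0 ± 57.2 TPM (SD, n = 8), and Cyp2d34, one of several mouse relatives of the human drug-metabolizing CYP2D enzymes, 317.3 ± 28.9 TPM. The next were Cyp2d12 at 125.5 ± 24.8 TPM and Cyp2d10 at 86.3 ± 5.47 TPM, so that the leading pair stood well above the rest. The libraries of this pair overlapped (300.2 to 490.3 and 271.2 to 346.0 TPM). Cyp4f14 (80.7 ± 19.5 TPM), Cyp4f16 (75.1 ± 8.75 TPM) and Cyp2d9 (60.0 ± 7.83 TPM) followed, with overlapping libraries. Levels of near copies are uncertain, since reads may be split between them: 60.3% of the 50-base windows of Cyp2c40, 54.3% of Cyp2c69, 52.8% of Cyp2c67, 43.3% of Cyp2c68, 35.8% of Cyp2d10 and 20.6% of Cyp2c65 also occur in transcripts of another gene. For Cyp2c55 this share was 1.1%, for Cyp51 2.8%, for Cyp2s1 4.3% and for Cyp3a13 0%.

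Liver-type members rested on WT library 5. Cyp3a11, the main Cyp3a enzyme of mouse liver, passed the limit of detection through this library alone, with 13.6 TPM there and at most 0.17 TPM in any other library. In all, 15 Cyp genes had at least 10 counts in WT library 5 and at least 80% of their WT counts there, among them Cyp1a2 (94.3%), Cyp2c29 (100%), Cyp3a25 (97.1%) and Cyp4a14 (100%), named after their values were seen. Without this library, 31 members in place of 33 were detected. Cyp2a12, a liver steroid hydroxylase, had 4.25 TPM in WT library 5 and 0.36 to 1.13 TPM in the other WT libraries.

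The first comparison asked how the knockout colon with vehicle differed from the WT colon. Genes of the xenobiotic families were lower in the knockout: 13 of the 22 tested fell and 1 rose. Cyp2c55 had the largest fall, 4.82-fold. Cyp27a1, a mitochondrial sterol hydroxylase of bile acid synthesis, fell 2.25-fold, and Cyp51, the lanosterol demethylase of cholesterol synthesis, rose 2.51-fold. Over all roles, 37 members passed the filter on low counts, and 17 of them were called lower (45.9%) and 4 higher (10.8%) at an adjusted p under 0.05. Over all 16435 genes tested, 24.1% were called lower and 25.2% higher. On the TPM scale, where the median of all genes lay at -0.17, limma with a pseudocount of 1 called 19 of 32 members lower and 3 higher, and 5944 genes lower and 2135 higher in place of 3966 and 4147. At 2-fold or more, 9 members were lower and 1 higher, against 5.94% and 7.26% of all genes. The median log2 fold change was -0.59 over the 37 and -0.01 over all genes. Members that did not pass the filter have no test.

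Cyp2c55 had 300.2 TPM in the lowest WT library, a median of 393.6 TPM and 490.3 TPM in the highest. In knockout vehicle the lowest library had 1.92, the median was 42.0 and the highest had 293.5 TPM. No knockout library reached the WT range, and the knockout libraries were spread far more widely than those of WT. The fitted log2 change of Cyp2c55 was -2.27 ± 0.63 (SE), with an adjusted p of 0.00676. The highest knockout value was in library 3 and the lowest in library 2, the library with the most neutrophil markers.

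Other Cyp2c and Cyp2d genes fell with it. Cyp2c68 had 43.4, 55.9 and 66.7 TPM (lowest, median, highest) in WT and 5.25, 21.6 and 51.5 TPM in knockout vehicle, and changed by -1.15 ± 0.30 on the log2 scale (adjusted p = 0.00477). Its near copies Cyp2c40 (-1.33 ± 0.44, adjusted p = 0.0179) and Cyp2c67 (-1.05 ± 0.35, adjusted p = 0.0182) also fell, and reads may be shared among the 3. Cyp2c69 was called only narrowly (-0.94 ± 0.38, adjusted p = 0.0463), and its call was lost in 12 of 25 other settings, with adjusted p up to 0.124. Cyp2c65, which neighbours Cyp2c55 in the cluster, had 1.26 to 3.36 TPM in WT and 0.68 to 8.43 TPM in knockout vehicle, with the groups overlapping, and was not called (0.41 ± 0.38, adjusted p = 0.374). Of the Cyp2d genes, Cyp2d12 had 91.6, 126.0 and 162.4 TPM in WT and 6.3, 26.6 and 92.1 TPM in knockout vehicle (-1.43 ± 0.43, adjusted p = 0.0115). Cyp2d22 had 28.0, 31.6 and 33.5 TPM in WT and 2.87, 12.6 and 23.4 TPM in the knockout, with no overlap (-1.16 ± 0.33, adjusted p = 0.00752). Cyp2d34, second highest in WT, fell less (-0.52 ± 0.14, adjusted p = 0.00449), from 271.2, 328.9 and 346.0 TPM to 131.1, 197.5 and 280.1 TPM. Cyp2d10 and Cyp2d9 were not called, with log2 fold changes of -0.35 ± 0.29 and 0.05 ± 0.27.

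Cyp3a13, the Cyp3a member with the highest level in these colon libraries, had 19.7, 21.9 and 25.5 TPM in WT. In knockout vehicle it had 6.39, 12.4 and 20.7 TPM. All but 1 of the knockout libraries lay below every WT library, and the change was -0.60 ± 0.15 (adjusted p = 0.00367). Cyp2s1, found mainly outside the liver in epithelia, had 47.0, 53.5 and 57.1 TPM in WT and 11.3, 33.6 and 58.0 TPM in the knockout (-0.52 ± 0.19, adjusted p = 0.0325), a call lost in 6 of 25 other settings (adjusted p up to 0.0747). Its highest knockout value, again in library 3, lay above all of WT. Cyp2f2, known for naphthalene oxidation in the lung, fell from 42.0, 55.4 and 65.1 TPM to 2.56, 23.0 and 58.8 TPM (-1.03 ± 0.41, adjusted p = 0.0455), and was no longer called in 15 of 25 other settings (adjusted p up to 0.0892). Cyp2a12 (-2.004 ± 0.64, adjusted p = 0.0148) rested on WT library 5: without it the change was -1.23 (adjusted p = 0.0805), and with DESeq2 it was -1.18 (adjusted p = 0.0709). The authors' deposited table gave it an adjusted p of 0.0518. Of the hepatocyte markers, 3 of 5 tested were lower in the fit that included WT library 5. They summed to 948.1 TPM in that library, 62.1 to 78.0 TPM in the other WT libraries and 37.5 to 80.8 TPM in the knockout. Without WT library 5 the ranges of these sums thus overlapped. Cyp2j9 was also lower (-0.78 ± 0.27, adjusted p = 0.0239), named after its value was seen. Cyp2j6, an epoxygenase of arachidonic acid, went the other way, with 11.5, 14.3 and 17.6 TPM in WT and 12.2, 20.2 and 35.1 TPM in the knockout (0.83 ± 0.19, adjusted p = 0.00162). It was the 1 xenobiotic family member called higher, and 7 of 10 knockout libraries lay above all of WT.

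**Figure D2:**
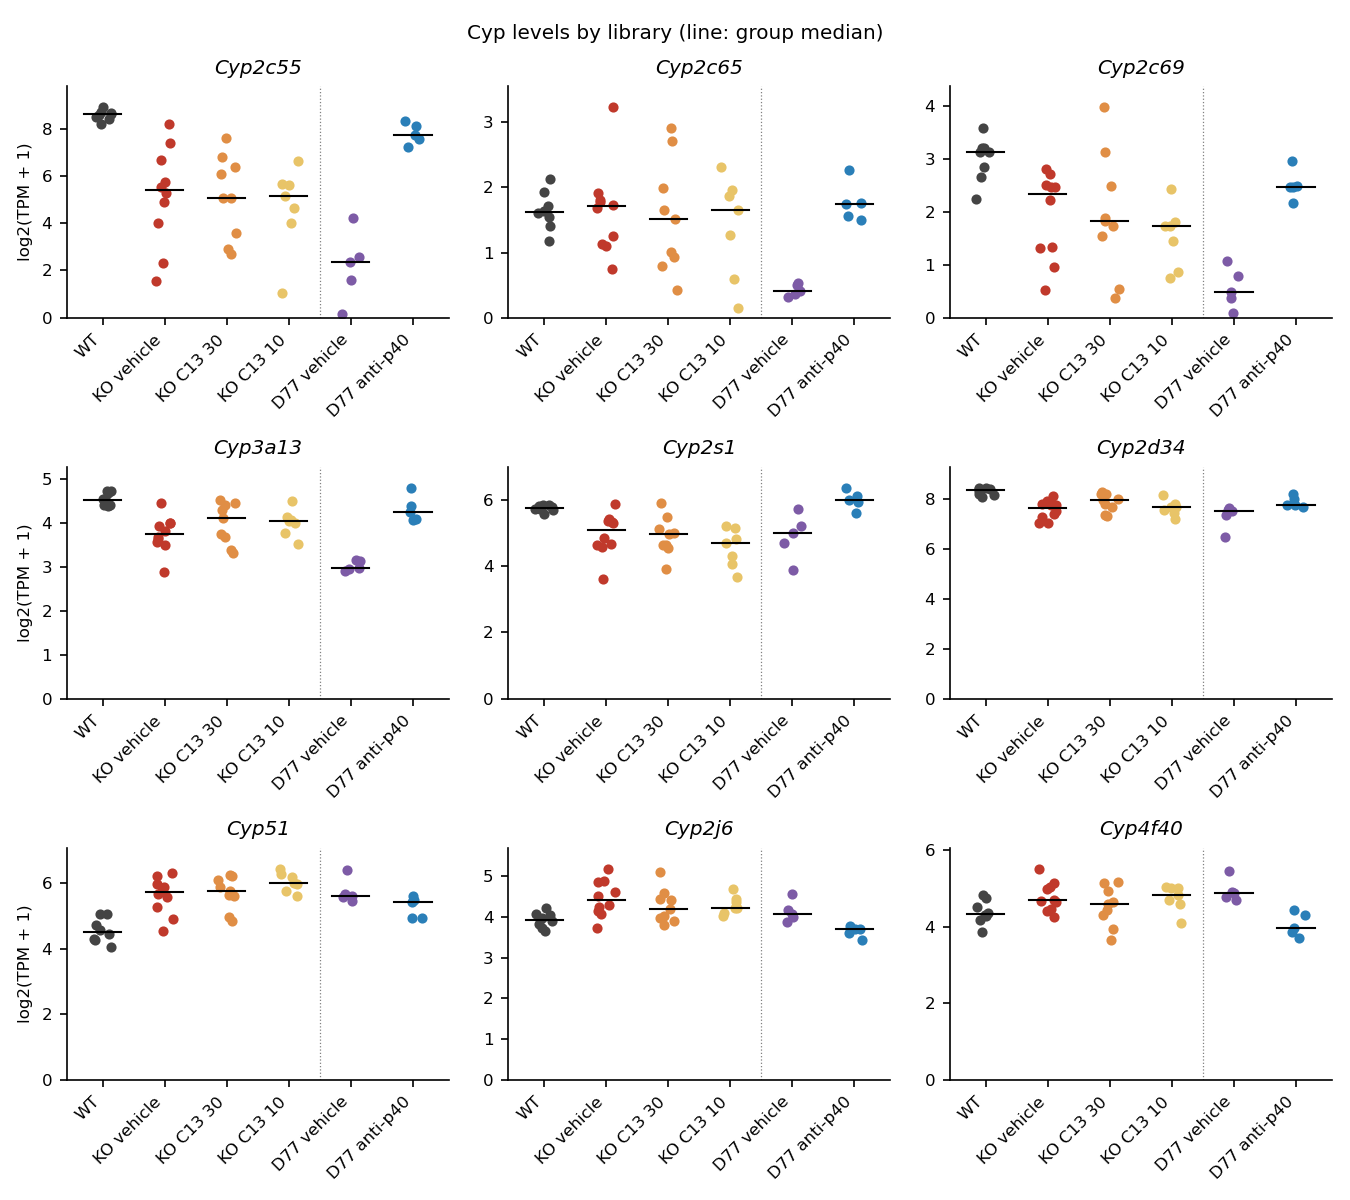
Levels of 9 Cyp genes as log2(TPM + 1) in each library of the 6 groups (points), with the group median as a line; the dotted line parts the first cohort from the day 77 cohort, whose table was scaled separately. Cyp2c55 is at 300.2 TPM or more in every WT library and at 17.97 TPM or less in every day 77 vehicle library, while Cyp51 is lowest in WT.

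Among the Cyp4 genes, 3 of 9 tested were lower (33.3%) and 2 higher (22.2%), near the 24.1% and 25.2% of all genes. Cyp4f14, an enzyme that inactivates leukotrienes, had 61.1, 71.4 and 114.8 TPM in WT and 60.7, 105.3 and 199.99 TPM in knockout vehicle (0.71 ± 0.22, adjusted p = 0.0136). With limma on log2 TPM it was not called (0.43 and 0.44 with a pseudocount of 1 and 0.1, adjusted p = 0.0793 and 0.0792). Cyp4f40 rose from 13.5, 19.1 and 27.6 TPM to 18.1, 24.7 and 44.5 TPM (0.64 ± 0.18, adjusted p = 0.00739), with groups that overlapped in 6 of the 10 knockout libraries. Cyp4f13 fell by a small amount, from 48.9, 54.4 and 65.3 TPM to 19.3, 38.6 and 52.6 TPM (-0.36 ± 0.13, adjusted p = 0.0341). Its call was lost in 8 of 25 other settings (adjusted p up to 0.0615). Cyp4v3, a fatty acid hydroxylase, fell from 7.66, 8.65 and 9.23 TPM to 2.03, 4.43 and 9.67 TPM (-0.64 ± 0.19, adjusted p = 0.00893), and Cyp4f17, named after its value was seen, was lower too (-0.74 ± 0.23, adjusted p = 0.0133). Cyp4f16 (-0.24 ± 0.12, adjusted p = 0.116) and Cyp4f18, the leukotriene hydroxylase of neutrophils (0.83 ± 0.38, adjusted p = 0.0799), were not called by edgeR. The authors' deposited table gave Cyp4f18 an adjusted p of 0.04235, with a log2 fold change of 0.82.

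The sterol members divided. Cyp27a1 had 42.3, 50.2 and 64.4 TPM in WT and 5.5, 16.4 and 38.5 TPM in knockout vehicle, without overlap (-1.17 ± 0.26, adjusted p = 0.00139). Cyp51 (chromosome 5, 4081145 to 4104746) had 15.7, 21.9 and 32.5 TPM in WT and 22.4, 51.7 and 77.5 TPM in the knockout, where 8 of 10 libraries lay above all of WT (1.33 ± 0.24, adjusted p = 0.000283). The lowest knockout value was again in library 3 and the highest in library 2. Its promoter is shown because Cyp51 was the member with the smallest adjusted p in this comparison and is a known target of the sterol-sensing factor SREBP-2. Capitals mark ATCACCNCA, a form of the sterol regulatory element, searched on both strands.
Cyp51 (chr5:4104747-4104947, minus strand): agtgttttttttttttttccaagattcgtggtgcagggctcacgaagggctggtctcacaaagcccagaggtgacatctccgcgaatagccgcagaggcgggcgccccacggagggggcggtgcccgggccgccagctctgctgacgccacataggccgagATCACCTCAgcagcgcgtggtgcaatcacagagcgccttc
This motif began 89 bases before the RefSeq start. It stood in 0.645% of all promoters and in 1 of 87 promoters of Cyp genes. Srebf2, which encodes SREBP-2, was higher in knockout vehicle (76.5 ± 9.60 TPM, n = 10) than in WT (62.5 ± 4.48 TPM, n = 8). Its log2 fold change was 0.49 ± 0.08 (adjusted p = 0.000141), and it was named after its value was seen. Srebf2 was not among the regulators called with anti-p40. Whether Srebf2 or this motif has a part in the Cyp51 change was not tested. Cyp39a1, an oxysterol hydroxylase, was at 5.66 to 7.88 TPM in WT and 4.04 to 9.36 TPM in the knockout and was not called (0.01 ± 0.13, adjusted p = 0.943).

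Markers of other cells moved in the same comparison. Of 8 smooth muscle markers 8 were lower, summing to 4362 to 9894 TPM in WT and 277.8 to 7254 TPM in knockout vehicle, and of 7 neutrophil markers 5 were tested and all 5 were higher (195.1 to 302.0 TPM in WT, 260.3 to 5279 TPM in the knockout). Of other immune markers, 7 of 8 for macrophages (391.5 to 619.8 TPM in WT, 577.0 to 1734 TPM in the knockout), 6 of 7 for T cells (5.74 to 29.0 and 24.3 to 64.7 TPM) and 5 of 6 for B and plasma cells (262.1 to 398.3 and 577.1 to 2387 TPM) were higher. Of fibroblast markers 5 of 7 (390.3 to 697.0 and 182.0 to 550.1 TPM) and of enteric neuron and glia markers 5 of 7 (32.8 to 83.2 and 3.55 to 55.4 TPM) were lower. Of 12 colon epithelium markers 10 were higher. Over all genes tested 25.2% were called higher and 24.1% lower. Differentiated colonocytes are cells of the kind in which many xenobiotic enzymes reside. Of 7 genes listed for them (Slc26a3, Car4, Aqp8, Slc20a1, Ceacam20, Guca2a and Saa1), 3 were higher and 1 lower. Their sums were 10730 to 13210 TPM in WT and 8460 to 19890 TPM in the knockout. These genes may change within cells, so the sum need not follow the number of colonocytes. Knockout vehicle library 3, which came closest to WT in Cyp2c55 (293.5 TPM) and had 7254 TPM of smooth muscle markers, had the fewest neutrophil markers (260.3 TPM). Without it, 20 members were called lower. The part of cell composition in the Cyp changes was not tested. In bulk tissue, fewer cells of a type and less RNA per cell cannot be told apart.

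Partners and regulators of the Cyp genes included called genes in both directions, as did all genes tested (24.1% lower, 25.2% higher). Of 10 tested genes that pass electrons to P450s or bind them, 1 was higher (Cyb5b) and 2 lower (Pgrmc1 and Pgrmc2), named after their values were seen. Por, the reductase that serves most P450s, was not called in the count fit (-0.15 ± 0.08, adjusted p = 0.149). Its TPM differed by more, with 39.97 ± 9.60 in knockout vehicle and 52.1 ± 4.202 in WT. On the log2(TPM + 1) scale the median change of all genes was -0.17. Of 12 genes of haem synthesis and breakdown, 4 were higher and 3 lower. The first enzyme of haem synthesis, Alas1, had the largest of these changes, with 348.4 ± 133.4 TPM against 131.4 ± 26.2 TPM (1.58 ± 0.21, adjusted p = 3.12e-05). Of 30 tested regulators, 8 were higher and 14 lower. Nr1i2, which encodes the xenobiotic receptor PXR, was lower (-0.29 ± 0.07, adjusted p = 0.00381), and so was Nr1i3, which encodes its relative CAR (-0.67 ± 0.22, adjusted p = 0.0161). Rxra, their partner, was called higher in the count fit (0.19 ± 0.07, adjusted p = 0.0289), but its TPM was 29.5 ± 2.22 in the knockout and 29.7 ± 2.03 in WT. Pparg, a lipid-sensing receptor, rose (1.01 ± 0.15, adjusted p = 7.27e-05) and Rxrg, at 0.28 ± 0.14 TPM in the knockout and 0.61 ± 0.35 TPM in WT, fell (-1.03 ± 0.38, adjusted p = 0.0295). Ahr (-0.12 ± 0.09, adjusted p = 0.252), Vdr (-0.12 ± 0.10, adjusted p = 0.303) and Hnf4a (0.08 ± 0.09, adjusted p = 0.461) were not called. Outside the Cyp symbols, 1 of 2 other P450 genes, the thromboxane synthase gene Tbxas1, was higher (0.88 ± 0.22, adjusted p = 0.00335), named after its value was seen.

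The next comparisons asked whether compound 13 changed Cyp expression in knockout colon. No member was called at either dose. At 30 mg/kg edgeR called 0 of 37 tested members and 0% of 16948 genes, and 2 members had an unadjusted p under 0.05, against 5.92% of all genes. At 10 mg/kg 0 of 37 were called, against 0.0118% of all genes, and 2 had an unadjusted p under 0.05, against 11.0% of all genes. DESeq2, the other fits and the removal of any 1 library also called 0 members at both doses. The median log2 fold change over the members was 0.20 at 30 mg/kg and 0.03 at 10 mg/kg, against 0.004 and -0.018 over all genes. At 30 mg/kg 26 of the 37 members lay above 0 and 11 below, and at 10 mg/kg 20 above and 17 below. Near copies among the Cyp2c and Cyp2d genes may share reads, so these members are not separate observations.

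Cyp2c55 had 1.92, 42.0 and 293.5 TPM in knockout vehicle, 5.48, 32.7 and 197.2 TPM at 30 mg/kg, and 1.06, 34.8 and 99.1 TPM at 10 mg/kg. The 3 groups overlapped over most of their range, and no library of either dose reached the WT minimum of 300.2 TPM. The smallest p-values at 30 mg/kg were those of Cyp4f18 (-0.75 ± 0.28, adjusted p = 0.835), Cyp2d34 (0.42 ± 0.18, adjusted p = 0.835) and Cyp3a13 (0.40 ± 0.21, adjusted p = 0.866). Cyp2d34 had 158.9, 246.8 and 311.3 TPM at this dose and 131.1, 197.5 and 280.1 TPM with vehicle, and 3 of 9 treated libraries lay above all of vehicle. At 10 mg/kg the smallest were those of Cyp39a1 (-0.38 ± 0.16, adjusted p = 0.386), Cyp51 (0.50 ± 0.23, adjusted p = 0.420) and Cyp2e1 (-1.91 ± 1.13, adjusted p = 0.548, and -1.24 without knockout vehicle library 1). Cyp39a1 had 2.81, 3.99 and 6.1 TPM at 10 mg/kg against 4.04, 5.82 and 9.36 TPM with vehicle, and Cyp51 had 48.0, 63.0 and 85.2 TPM against 22.4, 51.7 and 77.5 TPM. These groups overlapped, and none of the differences passed the threshold.

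Cyp2e1, which oxidizes ethanol, ranged from 0.0 to 74.6 TPM in WT, from 0.25 to 39.0 TPM in knockout vehicle, from 0.0 to 84.3 TPM at 30 mg/kg and from 0.0 to 6.78 TPM at 10 mg/kg. The same libraries were high in the 6 adipocyte markers: the 3 highest, library 2 of the 30 mg/kg group (84.3 TPM), WT library 5 (74.6 TPM) and WT library 2 (52.8 TPM), had summed adipocyte markers of 677.8, 531.7 and 350.0 TPM. The 4 libraries with Cyp2e1 listed at 0 had 19.9 to 23.4 TPM of them. An exception was library 1 of the 10 mg/kg group, with 6.78 TPM of Cyp2e1 and 26.0 TPM of adipocyte markers. The part of fat tissue in the Cyp2e1 values was not tested.

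**Figure D3:**
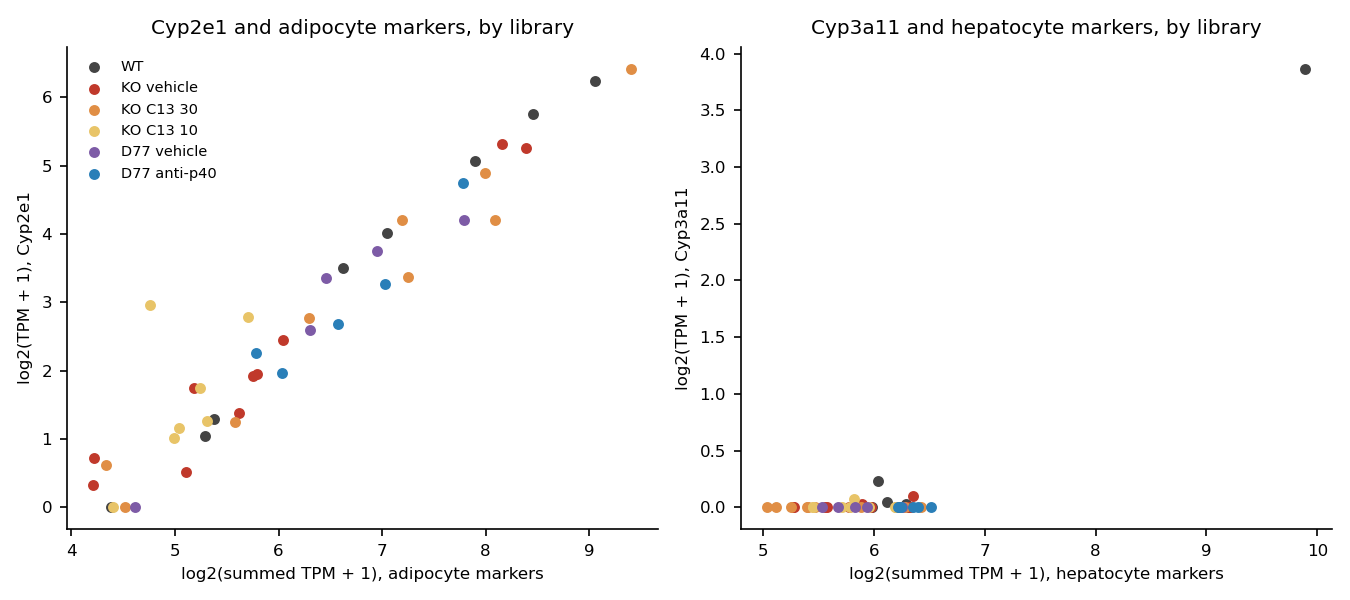
Each point is a library, coloured by group, on log2(TPM + 1) axes: Cyp2e1 against the summed adipocyte markers (left) and Cyp3a11 against the summed hepatocyte markers (right). Cyp2e1 is highest, at 84.3 TPM, in the library with the most adipocyte markers, and Cyp3a11 leaves the baseline in WT library 5 alone, at 13.6 TPM.

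The last comparison asked how anti-p40 changed the knockout colon at day 77. Xenobiotic family members rose with the antibody: 6 of 22 tested were higher and 1 lower. Cyp2c55 rose 38.8-fold, Cyp2c69 8.59-fold and Cyp2c65 6.62-fold, while Cyp4f40 fell 2.10-fold and Cyp2j6 1.60-fold. Over all roles 7 of 37 tested members were called higher (18.9%) and 2 lower (5.41%), against 8.35% and 8.32% of 16470 genes. At 2-fold or more 5 members were higher and 1 lower, against 3.55% and 3.58% of all genes. The median log2 fold change was 0.55 over the members and 0.01 over all genes. The number called higher depended on single libraries and on the tool. It was 4 without anti-p40 library 2 (Cyp2c55, Cyp2c65, Cyp2c69 and Cyp3a13), 12 without day 77 vehicle library 3 and 12 with DESeq2, and both lists of 12 held the 7. The genes added without vehicle library 3 were Cyp2c68, Cyp2d12, Cyp2d22, Cyp2f2 and Cyp4f39. Those added by DESeq2 were Cyp27a1, Cyp2a12, Cyp2c40, Cyp2d34 and Cyp2f2.

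Cyp2c55 had 17.97, 4.88, 0.1, 1.99 and 4.18 TPM in the 5 vehicle libraries and 328.1, 276.2, 188.1, 217.0 and 149.6 TPM in the 5 anti-p40 libraries. The lowest anti-p40 library was thus well above the highest vehicle library. The fitted log2 change was 5.28 ± 0.84, with an adjusted p of 0.00325, and 6.28 without vehicle library 1 (adjusted p = 0.00125). Of the anti-p40 libraries, 1 lay inside the WT range of the first cohort and the others below it, on tables scaled separately.

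Cyp2c65 had 0.44, 0.32, 0.29, 0.24 and 0.41 TPM with vehicle and 3.81, 2.39, 2.37, 1.84 and 1.95 TPM with anti-p40 (2.73 ± 0.27, adjusted p = 0.000302). Cyp2c69 had 0.72, 0.3, 0.06, 0.4 and 1.11 TPM with vehicle and 4.58, 6.8, 3.5, 4.57 and 4.63 TPM with anti-p40 (3.10 ± 0.49, adjusted p = 0.0027). Neither gene's groups overlapped, and both were low against Cyp2c55 in every anti-p40 library. Of the other Cyp2c genes, which share many windows with Cyp2c69, Cyp2c40 (0.90 ± 0.35, adjusted p = 0.0966), Cyp2c67 (0.56 ± 0.40, adjusted p = 0.365) and Cyp2c68 (0.73 ± 0.29, adjusted p = 0.106) were not called by edgeR. For Cyp2c40 and Cyp2c68 all 5 anti-p40 libraries lay above every vehicle library. DESeq2 called Cyp2c40 higher, and edgeR called Cyp2c68 higher without vehicle library 3.

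Cyp3a13 had 6.66, 6.8, 6.51, 7.72 and 7.91 TPM with vehicle and 17.95, 16.08, 26.61, 19.89 and 15.79 TPM with anti-p40. Its vehicle libraries lay within a narrow range and all anti-p40 libraries were above it (1.34 ± 0.15, adjusted p = 0.000425). Cyp2s1 had 25.07, 36.44, 13.73, 52.73 and 31.02 TPM with vehicle and 69.21, 81.69, 63.83, 61.16 and 48.43 TPM with anti-p40, with 1 anti-p40 library inside the vehicle range (0.96 ± 0.25, adjusted p = 0.0244). The call was lost without anti-p40 library 2 or vehicle library 1 and without the filter on low counts (adjusted p up to 0.0644). Cyp2u1, a fatty acid hydroxylase, was low throughout, with 0.12 to 0.41 TPM in vehicle and 0.52 to 2.29 TPM with anti-p40 (1.78 ± 0.45, adjusted p = 0.0224). This call was lost without anti-p40 library 2 (adjusted p = 0.0559) and with limma on log2(TPM + 1) (adjusted p = 0.0505). Cyp4f13 had 32.99, 28.11, 13.15, 28.25 and 33.61 TPM with vehicle and 42.37, 43.89, 33.83, 49.27 and 42.65 TPM with anti-p40. Its lowest anti-p40 library was just above its highest vehicle library (0.62 ± 0.18, adjusted p = 0.0372), and the call was lost in 8 of 17 other settings (adjusted p up to 0.0793).

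The 2 genes that fell were among those higher in the knockout of the first cohort. Cyp4f40 had 29.24, 25.09, 43.03, 26.17 and 28.5 TPM with vehicle and 12.09, 14.49, 18.64, 20.53 and 13.51 TPM with anti-p40 (-1.07 ± 0.22, adjusted p = 0.01). Cyp2j6 had 13.68, 17.13, 22.47, 14.95 and 15.89 TPM with vehicle and 11.99, 11.2, 11.93, 12.67 and 9.71 TPM with anti-p40 (-0.68 ± 0.17, adjusted p = 0.0235). The Cyp2j6 call was lost without anti-p40 library 2 or 5 and in the fit of all 44 libraries (adjusted p up to 0.0698). In both, every anti-p40 library was below every vehicle library, and vehicle library 3 was the highest. Cyp51, with 46.44, 50.31, 84.15, 47.4 and 43.07 TPM against 48.04, 41.7, 43.84, 29.73 and 29.4 TPM, was not called (-0.52 ± 0.24, adjusted p = 0.151). Cyp27a1 was at 9.96 to 29.84 TPM with vehicle and 26.88 to 62.72 TPM with anti-p40 (0.85 ± 0.28, adjusted p = 0.0605), and Cyp2d34 at 86.96 to 197.1 and 205.2 to 291.9 TPM (0.46 ± 0.16, adjusted p = 0.0721). Neither was called by edgeR, and both were called higher by DESeq2. The authors' deposited table gave adjusted p = 0.0224 for Cyp27a1 and 0.049 for Cyp2d34.

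Day 77 vehicle library 3 was the lowest of its group for Cyp2c55, Cyp2d34, Cyp27a1 and Cyp4f13 and the highest for Cyp51, Cyp2j6 and Cyp4f40. It also had the lowest sum of differentiated colonocyte markers of the group (4715 TPM against 7743 to 9580 TPM in the others). Over the day 77 groups, 7 of 8 smooth muscle markers were higher with anti-p40 (1061 to 3300 TPM with vehicle, 3499 to 8646 TPM with anti-p40), 5 of 7 T cell, 6 of 8 macrophage, 2 of 6 B and plasma cell and 3 of 5 tested neutrophil markers were lower, 3 of 7 enteric neuron and glia markers were higher, and of the colonocyte markers 3 were higher and 1 lower. Of the hepatocyte markers 2 of 5 tested were higher (45.2 to 75.5 TPM with vehicle, 73.3 to 90.7 TPM with anti-p40). The part of these cells in the Cyp changes was not tested. Of 10 electron partners 2 were higher, Por (56.2 ± 7.01 TPM with anti-p40, 39.2 ± 2.99 TPM with vehicle, 0.37 ± 0.10, adjusted p = 0.0293) and Pgrmc1. Alas1 was lower (147.8 ± 33.3 TPM against 280.9 ± 125.4 TPM, -1.01 ± 0.29, adjusted p = 0.0374). Of 12 haem genes 2 were lower in all, and of 30 regulators 2 were lower and 0 higher. Over all genes tested in this comparison 8.35% were called higher and 8.32% lower. The small counts of partners, haem genes and regulators are therefore not read as particular to these lists. Nr1i2 (0.38 ± 0.14, adjusted p = 0.0749), Nr1i3 (0.68 ± 0.32, adjusted p = 0.165), Ahr (0.33 ± 0.12, adjusted p = 0.0891), Vdr (0.26 ± 0.21, adjusted p = 0.428), Rxra (-0.12 ± 0.08, adjusted p = 0.296) and Hnf4a (-0.16 ± 0.13, adjusted p = 0.427) were not called.

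The knockout and anti-p40 comparisons share no library, so their calls could be set side by side. Among the 37 members tested in both, 5 were lower in knockout vehicle than in WT and higher with anti-p40: Cyp2c55, Cyp2c69, Cyp3a13, Cyp2s1 and Cyp4f13. They made up 29.4% of the 17 that were lower in the knockout and 71.4% of the 7 that were higher with anti-p40. Another 2, Cyp2j6 and Cyp4f40, were higher in the knockout and lower with anti-p40, which is 50% of 4 and 100% of 2. No member was called in the same direction in both. Over all genes 3 were lower in both and 17 higher in both, which is 0.0765% and 0.413% of those called lower and higher in the knockout. With shares this small, 0 among the Cyp genes is nothing particular to them. Over all 16111 genes tested in both, 961 were lower and then higher, which is 24.5% and 70.3% of those lists, and 1201 were higher and then lower, which is 29.2% and 89.9%. The lower-then-higher shares of the Cyp genes were near those of all genes, and the higher-then-lower shares rest on 2 genes. In the edgeR fits Cyp2c65 and Cyp2u1 were called with anti-p40 and not in the knockout, and Cyp51 and Cyp27a1 in the knockout and not with anti-p40. The authors' deposited table also called Cyp2u1 lower in the knockout (adjusted p = 0.0398) and Cyp27a1 higher with anti-p40. Whether their effects differed between the comparisons was not tested.

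**Figure D4:**
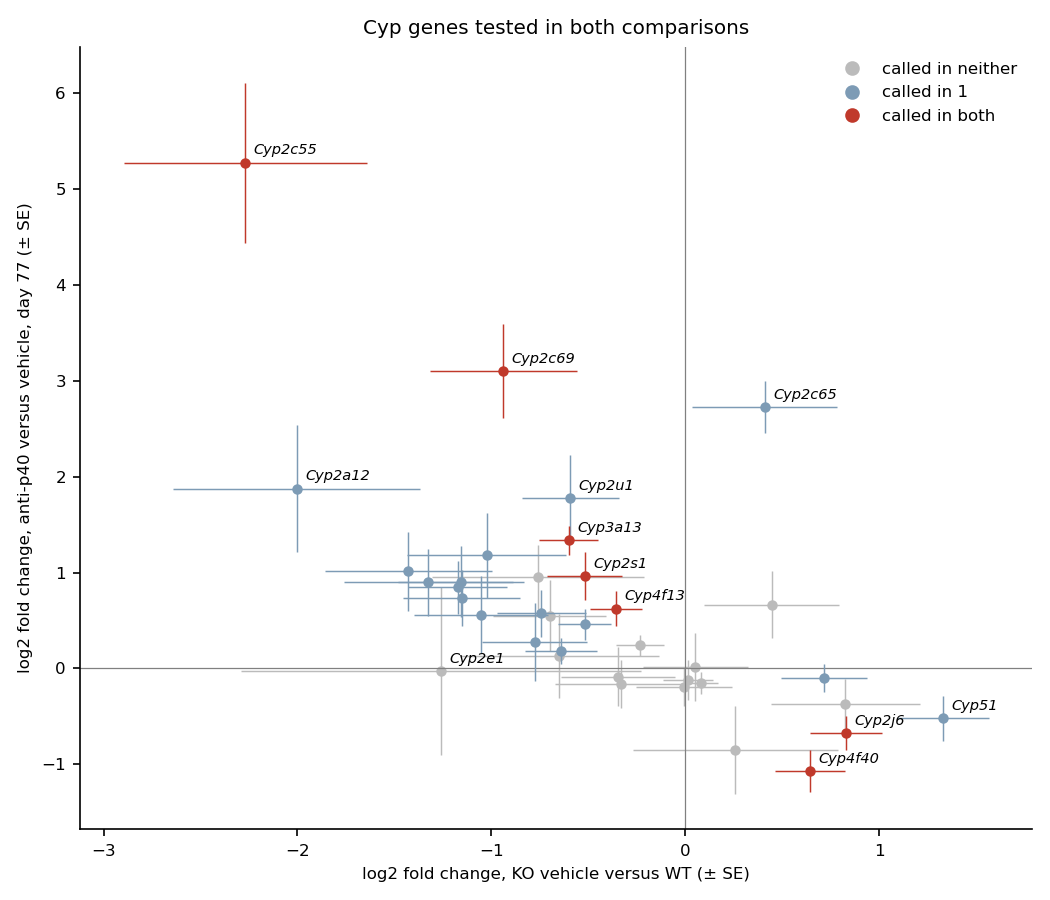
Log2 fold change of knockout vehicle over WT (horizontal) against that of anti-p40 over vehicle at day 77 (vertical), with SE as bars, for the 37 Cyp genes tested in both; red points were called in both, blue in 1 and grey in neither. The 7 red points lie in the upper left (5 genes) and lower right (2 genes), with Cyp2c55 at -2.27 and 5.28.

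The anti-p40 effect and the effect of compound 13 at 30 mg/kg were compared directly, each against the vehicle of its own cohort. Of 42 members tested, 1 differed, against 1.65% of 18021 genes. This was Cyp2c55, whose log2 fold change with anti-p40 exceeded that with compound 13 by 5.32 ± 1.25 (adjusted p = 0.0155). The value was 6.32 without day 77 vehicle library 1. It missed the threshold with limma voom (adjusted p = 0.107) and in a fit of only the 4 groups (adjusted p = 0.0521). The next were Cyp2u1 (2.25 ± 0.65, adjusted p = 0.0593) and Cyp2c65 (2.62 ± 0.80, adjusted p = 0.0787), which were not called by edgeR. Cyp2u1 passed the threshold with DESeq2, limma voom and limma on log2 TPM with either pseudocount (adjusted p down to 0.00809). Cyp2c65 passed it with DESeq2 and with limma on log2(TPM + 0.1) (adjusted p down to 0.0217). The cohorts also differ in their vehicle groups, where Cyp2c55 was at 1.92 to 293.5 TPM in the first cohort and 0.1 to 17.97 TPM at day 77, on tables scaled separately.

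The summed level of all 100 Cyp genes was 1619 ± 122.1 TPM in WT (n = 8), 917.8 ± 237.8 TPM in knockout vehicle (n = 10), 1035 ± 245.7 TPM at 30 mg/kg (n = 9) and 900.1 ± 143.5 TPM at 10 mg/kg (n = 7). No knockout vehicle library (609.7 to 1300 TPM) reached the lowest WT library (1447 TPM). At day 77 the summed level was 686.5 ± 145.5 TPM with vehicle and 1143 ± 150.6 TPM with anti-p40 (n = 5 each), again without overlap. All genes shifted the same way on the log2(TPM + 1) scale, with a median change of -0.17 in knockout vehicle against WT and 0.08 with anti-p40. The sums are not corrected for this shift. Cyp2c55 alone made up 24.1% of this sum in WT, 7.06% in knockout vehicle, 0.762% in day 77 vehicle and 20.1% with anti-p40. Without it the sums were 1228 ± 80.6 TPM in WT and 842.7 ± 180.2 TPM in knockout vehicle, and 680.7 ± 141.6 and 910.9 ± 113.8 TPM at day 77. The sterol members summed to 82.0 ± 10.9 TPM in WT and 76.7 ± 9.41 TPM in knockout vehicle. In this sum Cyp27a1 was lower (18.9 against 50.6 TPM) and Cyp51 higher (50.9 against 23.4 TPM). The Cyp4 genes summed to 247.8 ± 28.8 and 245.2 ± 36.4 TPM. The xenobiotic families held most of the difference, with 1277 ± 101.5 TPM in WT and 585.1 ± 253.5 TPM in knockout vehicle.

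**Figure D5:**
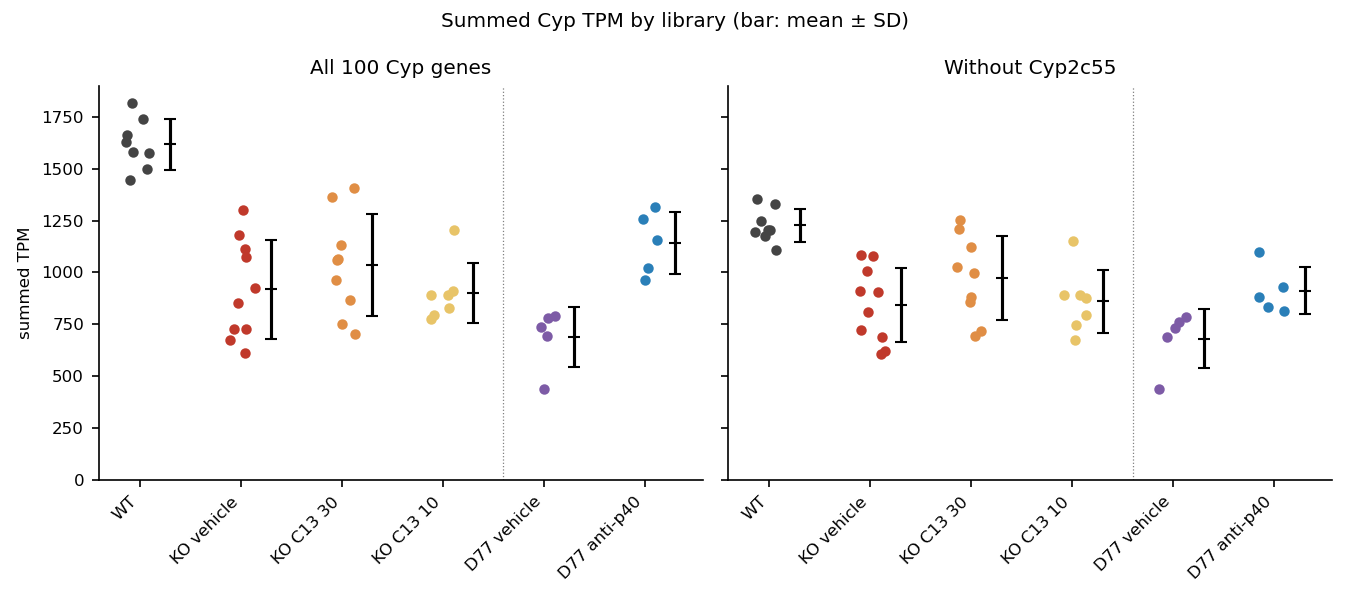
Summed TPM of the 100 Cyp genes in each library (points), with the mean ± SD of each group as bars, for all members (left) and without Cyp2c55 (right); the dotted line parts the separately scaled cohorts. The WT libraries start at 1447 TPM, above all knockout libraries, and the day 77 groups, at 686.5 and 1143 TPM on average, lie closer together without Cyp2c55.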

How the data were processed

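Distal colon RNA of 45 libraries was sequenced, 44 of which could be placed in a group. Tools named in the submitters' processing notes were RSEM 1.3.3, STAR 2.7.8a, DESeq2 1.30.1 and cutadapt 3.7, with build mm10 and no roles. Annotation and strandedness are not given in the sources used here. Estimated counts for each gene were deposited by the authors (22682471 to 36279743 per grouped library) together with TPM, in separate tables for each cohort. Per the file headers, the authors also deposited log2 fold changes with Wald p-values and adjusted p-values.

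Symbols, gene types and coordinates came from GENCODE M21 (GRCm38), which matched 50376 of 50600 identifiers. Estimated counts were rounded and tested over all genes with edgeR 4.0.16 (quasi-likelihood, robust, TMM, filterByExpr) in R 4.3.3, with Benjamini-Hochberg adjustment and a call at an adjusted p under 0.05. Unless another tool is named, values after a gene are log2 fold changes ± SE and adjusted p-values from edgeR. The knockout and anti-p40 fits held their own 2 groups, compound 13 the 3 knockout groups of its cohort, and the difference of effects all 6 groups. Alternatives were DESeq2 1.42.0, RLE scaling, no filter, limma 3.58.1 (voom, and log2 TPM with a pseudocount of 1 or 0.1), other sets of groups, and leaving out each library. The test was tried on simulated data. Shared sequence is the share of 50-base transcript windows found in another gene.

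Named members are those called in a comparison with a mean of at least 5 TPM in a group or a log2 fold change of at least 1 in size, the 10 highest in WT, the 3 smallest p-values at each dose, and the genes beside the detection limit. Of the other lists, genes called with a log2 fold change of at least 1 in size and Por, Nr1i2, Nr1i3, Ahr, Hnf4a, Vdr and Rxra are named. Members, lists and rules were chosen with earlier results of these data known. 1 library entered no comparison, since its title says 30 mg/kg but its treatment label 10 mg/kg.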

Additional observations from a re-analysis of the deposited data

Results flagged for a closer look

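A library lay far from the rest of its group for some of the named Cyp genes on the log2(TPM + 1) scale. Chance gives this in about 1 in 20 groups, and 163 groups that reached 1 TPM were examined. Most of these values came from day 77 vehicle library 3. It was lowest of its group for Cyp2c68 (6.07 TPM), Cyp2d12 (4.46 TPM), Cyp2d22 (1.87 TPM), Cyp2d34 (86.96 TPM), Cyp39a1 (3.06 TPM), Cyp4f13 (13.15 TPM), Cyp4f14 (43.03 TPM), Cyp4v3 (3.21 TPM) and the sum of all members (435.5 TPM). The same library was highest for Cyp4f40 (43.03 TPM) and Cyp51 (84.15 TPM). It held 4391 TPM of neutrophil markers.

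WT library 5 was highest for Cyp2a12 (4.25 TPM) and Cyp3a11 (13.59 TPM), with 948.1 TPM of hepatocyte markers. Knockout vehicle library 7 was highest for Cyp2c65 (8.43 TPM) and library 3 for Cyp4b1 (1.98 TPM). In the 30 mg/kg group, library 2 was lowest for Cyp39a1 (3.03 TPM) and library 8 for Cyp4f13 (24.23 TPM). Library 5 of the 10 mg/kg group had the highest sum of all members (1203 TPM), and anti-p40 library 4 was highest for Cyp39a1 (8.81 TPM).

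The effects of anti-p40 and of compound 13 at 30 mg/kg on Cyp2c55 differed by 5.32 on the log2 scale in the edgeR test of the difference itself. This call was lost with limma voom (adjusted p = 0.107) and in an edgeR fit of only the 4 groups (adjusted p = 0.0521).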

How the results depend on the processing

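In knockout vehicle against WT, 13 to 20 members were lower and 4 to 5 higher when 1 library was left out, and 15 to 21 lower and 3 to 5 higher in the other settings. The highest left-out count of lower members, 20, came without knockout vehicle library 3. The limma fits on log2 TPM moved the median of all genes to -0.17 (pseudocount 1) and -0.19 (pseudocount 0.1), and called 2135 genes higher and 5944 lower with a pseudocount of 1, in place of 4147 and 3966. With anti-p40, 12 members were higher with DESeq2, and 4 to 12 when 1 library was left out. 1 member was lower in the fit of all 44 libraries, and 1 to 2 when 1 library was left out (1 without anti-p40 library 2 or 5). For the difference between the anti-p40 and 30 mg/kg effects, 0 members were higher in a fit of the 4 groups, 5 with DESeq2, and 5 and 3 with limma on log2 TPM and a pseudocount of 0.1 and 1. Compound 13 counts were 0 throughout. Under other limits 24 to 43 members were detected, and 31 without WT library 5, a choice made after seeing the data. None of the called changes turned its direction under these settings, which were not run for Cyp2j9 and Cyp4f17 one by one. No paired analysis was possible because the replicate numbers only name libraries by their place in the deposit. Depth limits members with few counts: 0 counts in the shallowest library allow a level of up to 0.132 CPM.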

Other observations

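The library whose labels give different doses held 95.7 TPM of Cyp2c55, 3.7 TPM of Cyp2c69, 15.9 TPM of Cyp3a13 and 63.8 TPM of Cyp51.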
